A study of Homo sapiens with 2 samples.

Results

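The genes described here belong to 3 linked sets: the enzymes that make serine and feed one-carbon metabolism, the targets and partners of the stress transcription factor ATF4, and the aminoacyl-tRNA synthetases. The rule that chose them used gene symbols alone, although it was written with earlier results of these data known. A gene was a member if the platform annotation gave its probe set exactly 1 symbol and that symbol was either a synthetase (a letter followed by ARS, with an optional 1 or 2) or on a written list of serine, one-carbon, amino acid and integrated stress response genes. This found 37 genes, read by 39 probe sets, among the 14884 genes named on the array. The filter on low values was passed by 35 of the 37 and by 7896 genes in all.

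RNA came from A549 cells, an established human lung adenocarcinoma line, transfected either with an siRNA against p62/SQSTM1 (siP62) or with a control siRNA (siCONTROL), a short duplex with no stated target. Both were harvested 24 hours later and each was read on 1 Affymetrix whole-transcript array from 100 ng of total RNA. With 1 array per condition there was no replicate and no error between samples, so every difference below is between 2 arrays, the conditions could not be tested against each other and p-values are absent. The labels do not say whether 1 siRNA or a pool was used.

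Values are log2 units per probe set, and a difference is the siP62 value minus the siCONTROL value. The filter kept a gene whose brighter array reached 5.35, the median of all named probe set values. SQSTM1, the target, was 7.30 in siP62 cells against 8.64 in siCONTROL cells, a difference of -1.34 that left 39.5% of the control level. Over all 7896 genes the median difference was 0.04 and the robust SD of the differences over genes was 0.22, which describes the spread between these arrays and is not a replicate error. The 5 control genes (GAPDH, TBP, HPRT1, PPIA and B2M) lay between -0.08 and 0.20. All 5 epithelial markers named on the array (EPCAM, KRT7, KRT8, KRT18 and KRT19) passed the filter with differences of 0.02 to 0.21, whereas the endothelial markers PECAM1 and VWF lay below it in both arrays. The leukocyte marker CD14, at 5.94 in siP62 cells and 5.98 in siCONTROL cells, passed. Fibroblast markers were not analysed here.

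Serine is made from a glycolytic intermediate by PHGDH, PSAT1 and PSPH in turn, and serine hydroxymethyltransferases then pass one of its carbons to folate, giving glycine. When amino acids run short or the endoplasmic reticulum is stressed, kinases phosphorylate eIF2, general translation slows, and the ATF4 mRNA is translated more. ATF4 protein then binds C/EBP-ATF response elements in the promoters of serine enzymes, amino acid transporters and tRNA synthetases, so that ATF4 output is controlled largely at the level of its protein and is read from its targets. In lung cancer cells with active NRF2, the factor that p62 releases from KEAP1, NRF2 is known to raise serine synthesis genes through ATF4. A549 cells are known to carry a mutated KEAP1 and active NRF2, a background that both conditions share.

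The response element is described first, because it is the sequence that ATF4 is known to bind in promoters of genes of these kinds. The core TGATGNAA, where N is any base, was searched on both strands (TTNCATCA on the opposite one) in RefSeq promoter windows of GRCh38.p14 that run from 250 bases before to 50 after each gene's start. Windows were found for 32 of the 37 genes, and 10 of the 32 (31.2%) held the core in at least 1 window. Of the 6258 genes that passed the filter and had a window, 150 (2.40%) held it, and 4.46% of all 27305 genes with a window did. The form with C at the open position, TGATGCAA or TTGCATCA, stood in 7 of the 32 members (21.9%) and in 0.735% of the genes passing the filter. Synthetases held most of these matches, with the core in 7 of 14 and the C form in 6 of 14, against 3 and 1 of the 18 other members. A gene can have several windows that share sequence, and a match is a run of letters, not a measured binding site.

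The 10 matches are shown with 11 bases on either side, read 5′ to 3′ on the strand of the gene, with the core in capitals. They are printed so that the shared letters can be set beside the measured differences.
MARS1: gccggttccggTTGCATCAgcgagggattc
CARS1: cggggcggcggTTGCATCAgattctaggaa
IARS1: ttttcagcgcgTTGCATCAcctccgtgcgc
AARS1: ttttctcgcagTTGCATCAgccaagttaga
TARS1: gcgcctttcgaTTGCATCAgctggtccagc
NARS1: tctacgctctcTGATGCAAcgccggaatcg
MTHFD1L: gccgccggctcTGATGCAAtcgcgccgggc
GARS1: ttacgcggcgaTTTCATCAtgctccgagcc
ASNS: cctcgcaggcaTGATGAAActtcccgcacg
ATF3: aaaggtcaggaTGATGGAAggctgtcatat

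In MARS1 (chr12:57488053-57488082, plus strand), CARS1 (chr11:3057407-3057436, minus strand) and IARS1 (chr9:92293692-92293721, minus strand) the core began 4, 2 and 13 bases before an annotated start, which for CARS1 is 1 of 2. In TARS1 (chr5:33440956-33440985, plus strand) it began at base 3 of the transcript from 1 of 2 annotated starts, and in NARS1 (chr18:57621804-57621833, minus strand) at base 15. AARS1 (chr16:70289675-70289704, minus strand) had it 187 bases before the start and MTHFD1L (chr6:150866346-150866375, plus strand) 129 bases before 1 of its 4 starts, 3 of whose windows hold it. The GARS1 match (chr7:30594834-30594863, plus strand) lay 33 bases before 1 of its 2 annotated starts, the ASNS match (chr7:97872458-97872487, minus strand) 68 bases before 1 of 2, and the ATF3 match (chr1:212565205-212565234, plus strand) 191 bases before 1 of 2. The C-form matches in synthetases other than AARS1 thus lay at most 15 bases from an annotated start, which for CARS1 and TARS1 is only 1 of 2 such starts.

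The comparison of the arrays asked whether these genes differed when SQSTM1 was silenced. None of the 35 members passing the filter differed by 1.5-fold or more in either direction, where 3.67% of all genes passing the filter did (2.08% higher and 1.6% lower). A lower line was set at a difference of 0.322 on the log2 scale, which is 125% of the control level on the higher side and 80% on the lower. Past this line PHGDH and GARS1 were higher and PSPH was lower in the siP62 array. With the all-gene median or a loess curve subtracted, or after renewed quantile normalization, GARS1 came just under the line and GDF15, at -0.35, past it, so that 1 member was higher and 2 were lower. As deposited the count past the line was 3 of 35 members (8.57%), against 18.4% of all genes. By direction, 2 of 35 members were past the line on the higher side, against 11.3% of all genes, and 1 on the lower side, against 7.13%. Differences above 0 were found for 24 members (68.6%), below 0 for 10 and at 0 for 1, against 55.4% above and 41.8% below among all genes. The members' median was 0.06, against 0.04 for all genes, and their interquartile range was 0.23, against 0.29 for all genes. After the all-gene median was subtracted, 20 members lay above 0 and 14 below. In bulk RNA a difference in the number of cells of a kind and a difference in RNA per cell cannot be told apart.

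**Figure D1:**
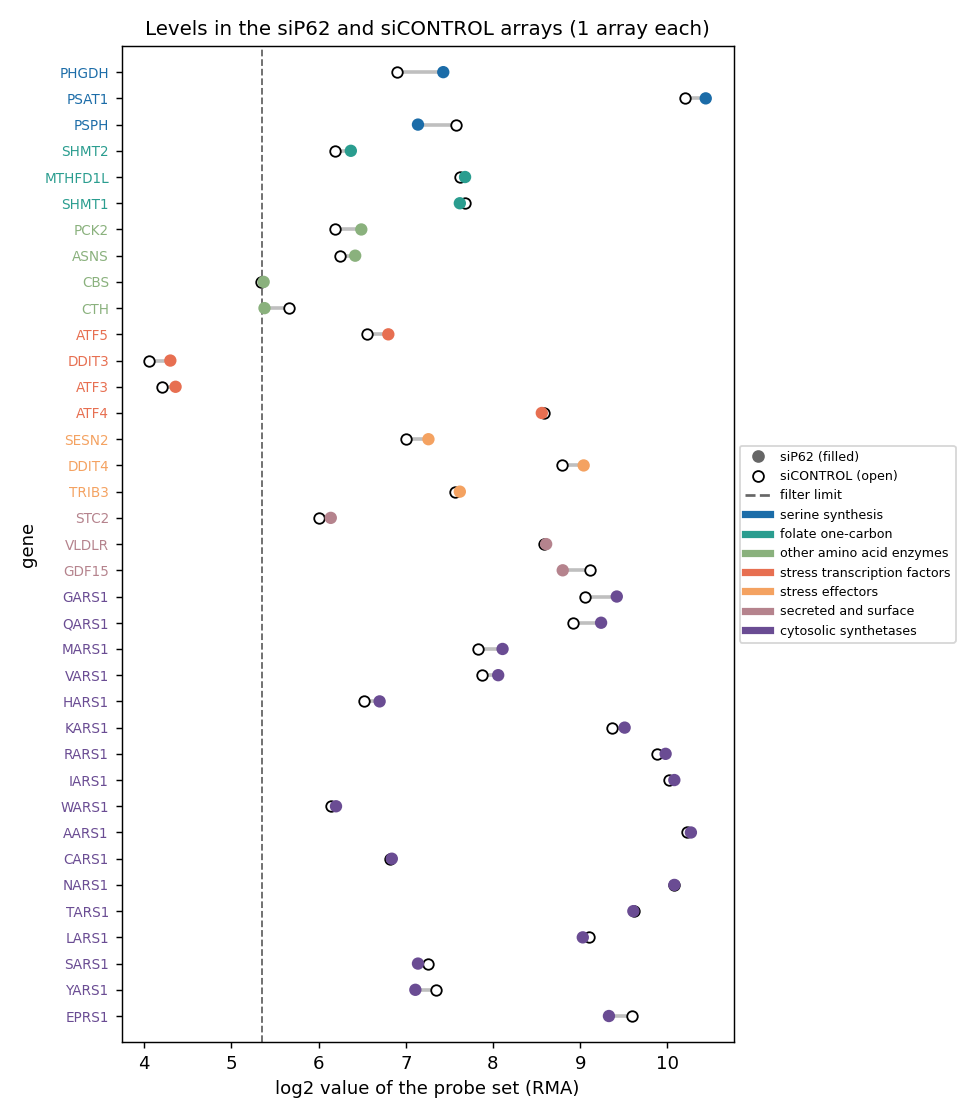
Log2 value of each member's probe set (x axis, RMA log2 units) in the siP62 array (filled points) and the siCONTROL array (open points), 1 array each, with genes grouped and coloured by role and the filter limit of 5.35 dashed. The filled and open points lie close together for most genes, the widest gaps being those of PHGDH and PSPH; for NARS1, at 10.08 in both arrays, the filled point covers the open one, and DDIT3 and ATF3 lie below the limit. Positions of different genes on the axis are not to be compared, since probe sets differ in brightness.

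The 3 enzymes of serine synthesis did not share a direction. PHGDH, phosphoglycerate dehydrogenase, which takes the first step and is amplified or overexpressed in some cancers, was 7.43 in siP62 cells and 6.90 in siCONTROL cells. This difference of 0.53, a 1.44-fold higher level, was the highest of any member, and 229 of the 7896 genes (2.90%) had a higher one. PSAT1, the aminotransferase of the second step, was 10.44 in siP62 cells and 10.20 in siCONTROL cells, a difference of 0.24. PSPH, the phosphatase that releases serine in the last step, went the other way, with 7.14 in siP62 cells and 7.58 in siCONTROL cells. Its difference of -0.44, a 1.36-fold lower level, was the lowest of any member, and 280 genes (3.55%) had a lower one. Among genes of like mean level (1 of 20 bins) the robust SD of the differences was 0.21 for PHGDH and 0.24 for PSPH, smaller than the size of either difference. Many genes pass a robust SD by its definition, and these are the highest and lowest of 35 members. Passing it therefore does not set PHGDH and PSPH apart. Each of the 3 was read by 1 probe set. RefSeq lists a pseudogene of PSPH (PSPHP1) and 4 pseudogenes of PSAT1, and whether the probes also read those was not tested.

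The folate enzymes that take up the serine carbon differed less. SHMT2, the mitochondrial serine hydroxymethyltransferase, was 6.37 in siP62 cells and 6.19 in siCONTROL cells, a difference of 0.18. SHMT1, its cytosolic counterpart, was 7.62 in siP62 cells and 7.68 in siCONTROL cells, a difference of -0.06. MTHFD1L, which releases formate from mitochondria, was 7.68 in siP62 cells and 7.62 in siCONTROL cells. The mitochondrial and the cytosolic hydroxymethyltransferase therefore lay on opposite sides of 0, each within the spread of genes of like level (robust SD 0.25 and 0.22). MTHFD1 and MTHFD2 were not analysed here.

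Among the other amino acid enzymes, 3 of 4 were higher in the siP62 array, where 55.4% of all genes were, and none lay past the 0.322 line. PCK2, the mitochondrial phosphoenolpyruvate carboxykinase, was 6.49 in siP62 cells and 6.19 in siCONTROL cells, a difference of 0.30. ASNS, asparagine synthetase, one of the best known ATF4 targets and a holder of the core in its promoter, was 6.42 in siP62 cells and 6.25 in siCONTROL cells, a difference of 0.17. The transsulfuration enzymes, which carry sulfur from homocysteine to cysteine, stood near the filter limit. CTH, which releases cysteine, was 5.38 in siP62 cells and 5.66 in siCONTROL cells, a difference of -0.28, and CBS, the enzyme before it, was 5.37 in siP62 cells and 5.34 in siCONTROL cells. CBS was thus the member nearest above the limit, and it passed through its siP62 value alone. Its place among the 3 higher enzymes therefore rests on the array in which it was higher. The CBS difference was 0.03, and -0.01 with the all-gene median subtracted. DDIT3 and ATF3 were the 2 members below the limit.

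ATF4 mRNA itself was nearly equal, with 8.56 in siP62 cells and 8.58 in siCONTROL cells, a difference of -0.02. As ATF4 is controlled largely through its translation, its mRNA level does not report its protein, which was not measured. ATF5, a related factor with the same kind of translational control, was 6.80 in siP62 cells and 6.56 in siCONTROL cells, a difference of 0.24. DDIT3, which encodes CHOP, the factor induced by endoplasmic reticulum stress, was 4.30 in siP62 cells and 4.06 in siCONTROL cells. ATF3, an early stress-induced factor, was 4.36 in siP62 cells and 4.21 in siCONTROL cells. Both lay below the filter in both arrays and neither is shown to be above background, so no fold is given for them. CEBPB and NUPR1 were not analysed here. RefSeq lists 4 pseudogenes of ATF4, and whether its probes also read those was not tested.

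The stress effectors were higher in the siP62 array in 3 of 3 cases, none past the 0.322 line, with a median of 0.25; 55.4% of all genes were above 0. SESN2, sestrin 2, which restrains mTORC1 when leucine is short, was 7.26 in siP62 cells and 7.0 in siCONTROL cells, a difference of 0.26. DDIT4, also called REDD1, another brake on mTORC1, was 9.04 in siP62 cells and 8.79 in siCONTROL cells, a difference of 0.25. TRIB3, a pseudokinase that feeds back on ATF4, was close to equal at 7.62 in siP62 cells and 7.56 in siCONTROL cells. Both mTORC1 inhibitors thus had larger differences than TRIB3, with 1267 genes (16.0%) higher still than SESN2 and 1330 genes (16.8%) higher than DDIT4. CHAC1 and PPP1R15A were not analysed here.

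Of the secreted and surface proteins, GDF15, a stress-induced cytokine that acts on appetite, was 8.80 in siP62 cells and 9.11 in siCONTROL cells. Its difference of -0.31 was the lowest after PSPH and came just short of the 0.322 line, with 600 genes (7.60%) lower. STC2, stanniocalcin 2, a secreted glycoprotein, was 6.14 in siP62 cells and 6.01 in siCONTROL cells, and VLDLR, a lipoprotein receptor, was 8.61 in siP62 cells and 8.59 in siCONTROL cells. The stress-responsive genes therefore did not share a direction, SESN2 and DDIT4 lying above the median of all genes and GDF15 below it.

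**Figure D2:**
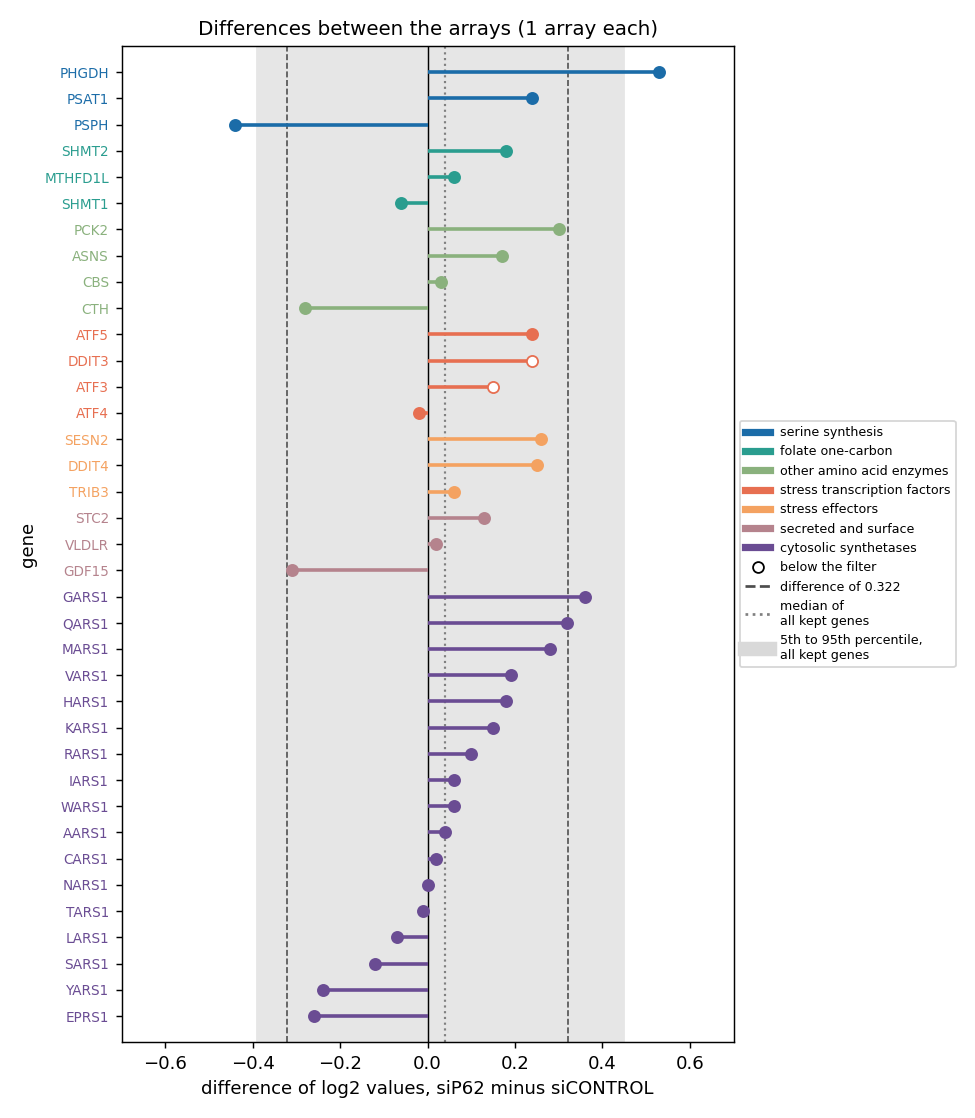
Difference of log2 values, siP62 minus siCONTROL (x axis), for each member, grouped and coloured by role; the grey band covers the 5th to 95th percentile of all genes passing the filter (-0.39 to 0.45), dashed lines mark differences of 0.322 either way and the dotted line the all-gene median of 0.04. PHGDH (0.53) and PSPH (-0.44) are the members outside the band, on opposite sides of it; open points are the 2 members below the filter.

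Aminoacyl-tRNA synthetases attach each amino acid to its tRNA. In human cells most amino acids have one enzyme for the cytosol and another for mitochondria, while GARS1 and KARS1 serve both compartments. All 17 cytosolic enzymes that the symbol rule found passed the filter. Of these, 11 were higher in the siP62 array, 5 lower and 1 equal, with a median difference of 0.06, where 55.4% of all genes were higher and 41.8% lower. Past the 0.322 line lay 1 of the 17, against 18.4% of all genes. Mitochondrial synthetases were not analysed here, so the compartments were not compared.

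GARS1, the glycyl-tRNA synthetase, had the highest difference of the family, with 9.42 in siP62 cells and 9.06 in siCONTROL cells. This was a difference of 0.36, or 1.28-fold, and 675 genes (8.55%) had a higher one; under the 3 other scalings it came just under the 0.322 line. RefSeq lists a pseudogene of GARS1 too (GARS1P1). In all, 12 of the 37 members have at least 1 pseudogene named there, ASNS with 5. Whether their probes also read those was not tested. QARS1, which charges glutamine, was 9.24 in siP62 cells and 8.92 in siCONTROL cells, a difference of 0.32 that came just under the 0.322 line. MARS1, which charges methionine, was 8.11 in siP62 cells and 7.83 in siCONTROL cells, a difference of 0.28. These 3 lay above the robust SD of genes of like level, which was 0.18 for GARS1 and QARS1 and 0.20 for MARS1.

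At the lower end, 2 enzymes also reached the robust SD of genes of like level, 0.18 for EPRS1 and 0.24 for YARS1. By its definition many genes pass a robust SD, and the share of all genes past it was not counted. Reaching it therefore does not set the enzymes at either end apart. EPRS1, the fused enzyme that charges both glutamate and proline, was 9.33 in siP62 cells and 9.59 in siCONTROL cells, a difference of -0.26. YARS1, which charges tyrosine, was 7.11 in siP62 cells and 7.35 in siCONTROL cells, a difference of -0.24. SARS1, the seryl-tRNA synthetase and so the direct user of the serine made by PSPH, was 7.14 in siP62 cells and 7.26 in siCONTROL cells. LARS1, which charges leucine and senses it for mTORC1, was 9.03 in siP62 cells and 9.10 in siCONTROL cells. Of the enzymes for serine and glycine, the glycine enzyme GARS1 was thus the highest of the family. The serine enzyme SARS1 was among the 5 that were lower. Its difference of -0.12 lay within the robust SD of genes of like level, which was 0.24.

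The remaining synthetases lay between -0.01 and 0.19. VARS1 (valine) differed by 0.19, HARS1 (histidine) by 0.18, KARS1 (lysine) by 0.15 and RARS1 (arginine) by 0.10. IARS1 (isoleucine) and WARS1 (tryptophan) each differed by 0.06, AARS1 (alanine) by 0.04, CARS1 (cysteine) by 0.02 and TARS1 (threonine) by -0.01. NARS1, which charges asparagine, was at 10.08 in both arrays, while ASNS, which makes asparagine, differed by 0.17. Only VARS1 and WARS1 had a second probe set. For VARS1 it gave 7.34 in siP62 cells and 7.27 in siCONTROL cells, a difference of 0.07 beside 0.19 for the brighter one. For WARS1 it lay below the filter, at 4.41 in siP62 cells and 4.22 in siCONTROL cells, a difference of 0.19 beside 0.06. Within a gene the probe sets thus differed by 0.12 for VARS1 and 0.13 for WARS1. The median span was 0.13 over the 244 genes with several probe sets above the filter. The fainter WARS1 probe set does not enter that median. Between the arrays, 9 of the 17 synthetases differed by no more than 0.13. The interquartile range of all genes passing the filter spanned -0.11 to 0.18. The share of all genes within 0.13 was not counted, so the count of synthetases is not read as a trait of the family.

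Several synthetases work in a large complex, held together by the scaffold proteins AIMP1, AIMP2 and EEF1E1. This grouping was made after the values were seen. The 7 complex members measured, EPRS1, IARS1, KARS1, LARS1, MARS1, QARS1 and RARS1, ran from -0.26 to 0.32 with a median of 0.10. Of the 17 synthetases found by the symbol rule, they therefore held both the lowest, EPRS1, and the second highest, QARS1.

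The promoter core was then set beside the differences. The 9 members with the core that passed the filter had a median difference of 0.06 and ran from -0.01 to 0.36. The 21 with a window and no core had a median of 0.10 and ran from -0.31 to 0.53, and the 5 with no window in the table one of -0.07. The 7 genes with the C form had a median of 0.04, equal to that of all genes. Of the printed matches, MARS1 (0.28) was the only C-form gene above 0.06, whereas MTHFD1L, IARS1, AARS1, CARS1, NARS1 and TARS1, with the same 8 letters on one strand or the other, lay between -0.01 and 0.06. PHGDH, with the highest difference, had no core in its window, which says only that these letters were not in those 300 bases.

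**Figure D3:**
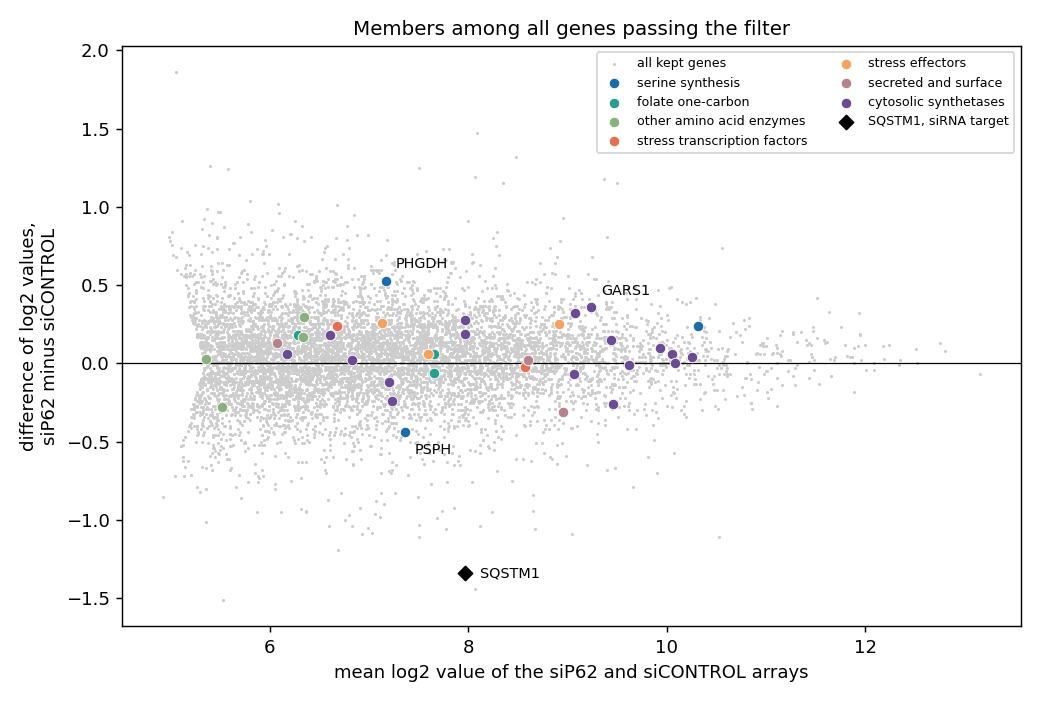
Difference of log2 values (y axis, siP62 minus siCONTROL) against the mean log2 value of both arrays (x axis) for the 7896 genes passing the filter (grey), with the 35 members coloured by role and SQSTM1 as a black diamond. The members lie inside the grey cloud at all levels, far from SQSTM1 at -1.34, with PHGDH, GARS1 and PSPH labelled.

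Genes upstream of and beside the members were read from lists written for the pathway. Of 15 genes of eIF2, its kinases and regulators, 6 were named and passed the filter, and 1, EIF2AK3, passed the 0.322 line, on the lower side, where 7.13% of all genes lay. EIF2AK3 encodes PERK, the kinase that senses unfolded protein in the endoplasmic reticulum. It was 6.81 in siP62 cells and 7.28 in siCONTROL cells, a difference of -0.47, with 229 genes (2.90%) lower. The other 3 eIF2 kinases lay on the other side of 0. EIF2AK4, or GCN2, which senses uncharged tRNA, was 8.02 in siP62 cells and 7.74 in siCONTROL cells, a difference of 0.28. EIF2AK1, or HRI, which senses heme, differed by 0.26 and EIF2AK2, or PKR, which senses double-stranded RNA, by 0.23. IMPACT, an inhibitor of GCN2, differed by 0.24, and GCN1, its activator, by -0.03.

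Of 20 further genes linked to ATF4 or CHOP, 8 were named and 6 passed the filter, with a median of -0.09, 3 higher and 3 lower, and 1 of them, ERO1A, past the 0.322 line, against 18.4% of all genes. ERO1A, the oxidase that drives disulfide formation in the endoplasmic reticulum, was 8.25 in siP62 cells and 8.86 in siCONTROL cells. Its difference of -0.61, a 1.53-fold lower level, was the only one past 1.5-fold among genes of the related lists that passed the filter. The related lists held 6, 6, 4 and 6 such genes. Of all genes passing the filter, 3.67% were past 1.5-fold in either direction and 1.6% on the lower side. BBC3, the death effector PUMA, differed by 0.27, PYCR1, an enzyme of proline synthesis, by 0.16, and EIF4EBP1, a repressor of translation, by 0.06. KLHL24 differed by -0.26 and JDP2, a partner of ATF factors, by -0.24. TXNIP and FGF21 lay below the filter.

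Among further synthetase genes and genes that work with the synthetases, 4 of 10 were named and passed, with a median of -0.14. Of these, 2 were higher and 2 lower, where 55.4% of all genes were higher and 41.8% lower. Past the 0.322 line lay 1 of them, DTD2, against 18.4% of all genes. DTD2, which removes misacylated residues from tRNA, was 7.10 in siP62 cells and 7.56 in siCONTROL cells, a difference of -0.46. TARS3, a threonyl-tRNA synthetase whose symbol falls outside the member rule, was 5.88 in siP62 cells and 6.19 in siCONTROL cells. Its difference of -0.31 was lower than that of any of the 17 member synthetases. DTD1, a deacylase like DTD2, differed by 0.19 and the scaffold gene AIMP1 by 0.03. The deacylase genes thus lay on opposite sides of 0, and the difference of TARS3 was lower than that of its relative TARS1.

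Of 15 folate and glycine genes, 8 were named and 6 passed, 3 higher, 2 lower and 1 equal, with a median of 0.04. None lay past the 0.322 line, where 18.4% of all genes did. GLDC, the glycine decarboxylase, differed by 0.22, FPGS, which keeps folate in cells, by 0.21, and TYMS, thymidylate synthase, by 0.08. ATIC, of purine synthesis, was at 9.78 in both arrays, DLD differed by -0.13 and MTR, methionine synthase, by -0.22. The 11 amino acid transporter genes of the list, SLC7A11 and SLC7A5 among them, were not analysed here.

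**Figure D4:**
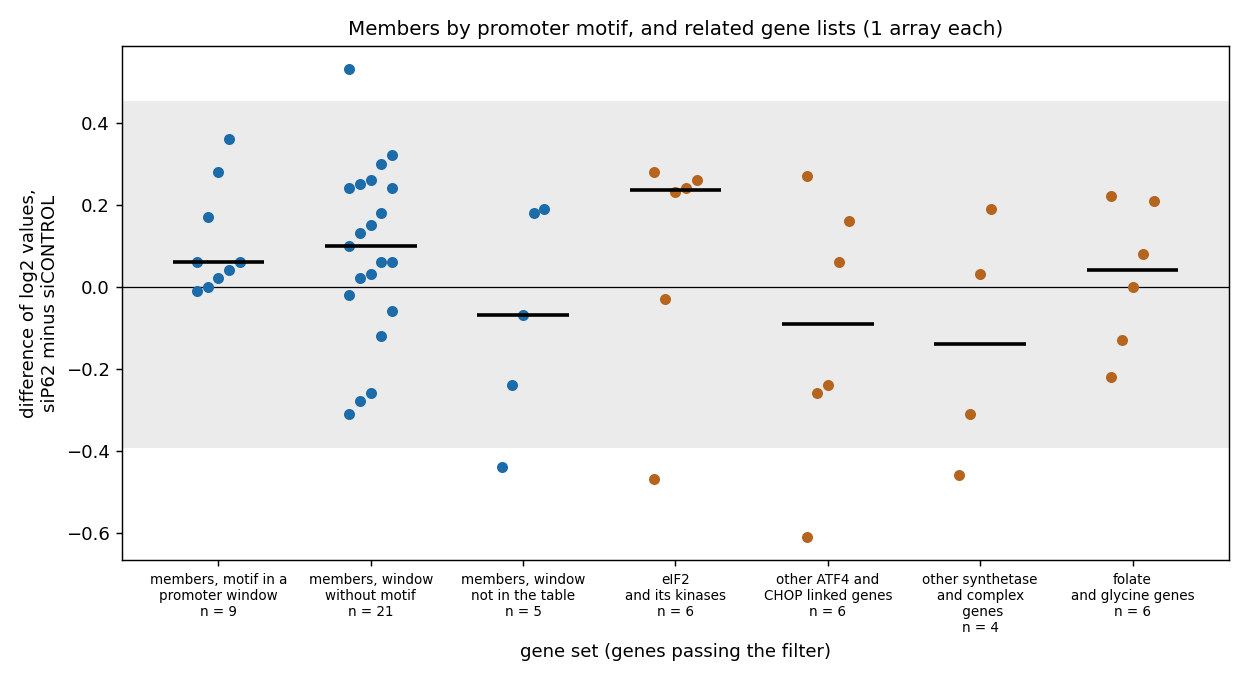
Difference of log2 values (y axis, siP62 minus siCONTROL) for members with the core TGATGNAA in a promoter window, without it, or with no window (blue), and for 4 related gene lists (brown); points are genes passing the filter, black bars are medians and the grey band is the 5th to 95th percentile of all genes. Members with the core (median 0.06) and without it (median 0.10) overlap, and ERO1A (-0.61), EIF2AK3 (-0.47) and DTD2 (-0.46) of the related lists lie below the band, as does PSPH (-0.44) of the members.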

How the data were processed

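RNA of 1 siP62 and 1 siCONTROL sample of A549 cells was measured on 1 array each. The deposited series table held log2 values of 48226 probe sets with 2 decimals. Per the submitters' processing notes, RMA and Transcriptome Analysis Console version 4.0.2.15 were used. The genome build and the arrays that entered RMA are not given in sources used here. As RMA usually equalises the distributions, a common shift of every gene would be hidden. The platform annotation gave 1 symbol to 16098 probe sets and several to 0, and 32128 were unnamed here. All 37 members were found by gene identifier in the RefSeq gene table (GRCh38.p14).

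A gene with several probe sets was represented by its brightest one, by the mean of both arrays. Genes were counted past 1.5-fold and past a log2 difference of 0.322. The spread of differences was summarised as a robust SD, the median absolute deviation scaled to match a normal SD, in 20 bins of mean level, where it ran from 0.15 to 0.39. The groups could not be tested against each other, and precision is limited by the number of arrays. The members and lists were chosen with earlier results of these data known. The naming rule took SQSTM1, the serine synthesis genes, ATF4, members past the lower line, members with several probe sets, the extremes of each role group, the synthetases and the control genes; the other members are named too, and genes of the related lists were picked for mention after their values were known. The choice of probe sets, the counting and the spread were checked on simulated data. Alternatives covered scaling, the probe set rule and the filter (Python 3.11.15, pandas 2.3.3, statsmodels 0.14.6).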

Additional observations from a re-analysis of the deposited data

How the results depend on the processing

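No paired analysis was possible because each group held 1 array, and no replicate could be left out for the same reason. Of the 35 members passing the filter, 28 have a value under all 7 alternatives and the other 7 under 5 or 6, as stricter filters removed them (for WARS1 also the mean over probe sets). DDIT3, ATF3, the promoter comparison, the related lists and the synthetase complex were not run under the alternatives. PHGDH ran from 0.49 to 0.53, PSPH from -0.48 to -0.44 and GARS1 from 0.32 to 0.36. After the all-gene median or a loess curve was subtracted, or both columns were quantile normalized again, 1 member lay past 0.322 on the higher side in place of 2, since GARS1 came just under the line, and 2 did on the lower side in place of 1, since GDF15 at -0.35 came over it. The median of the secreted and surface genes, 0.02, turned to -0.02 with the median subtracted, -0.03 with loess, -0.01 with quantile normalization and -0.14 with the filter at the 70th percentile, where fewer genes remained. CBS, CARS1 and VLDLR, which differed by 0.03 or less, also lay below 0 once the median was subtracted. So did NARS1, which was equal in both arrays as deposited and came to -0.04. The median over all members ran from 0.02 to 0.06. Over all genes, the counts of 164 higher and 126 lower at 1.5-fold and of 889 and 563 past 0.322 depended on the filter: no filter gave 305 higher and 318 lower at 1.5-fold and 1593 and 1474 past 0.322, and the 70th percentile gave 85 and 82, and 524 and 310. Of all genes past 0.322, the share on the higher side was 61.2% as deposited, 48.1% with the median subtracted, 50.2% with loess, 52.6% with quantile normalization and 51.9% without a filter. At 1.5-fold it was 56.6% as deposited, 45.2% with the median subtracted, 46.7% with loess and 49.5% with quantile normalization. With 1 array a condition, variation between cultures or arrays cannot be separated from the difference of any gene.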
